A study of Mus musculus with 29 samples.

Results

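The epithelial junction genes described here are 10 of the 24421 genes in the deposited count table, taken by their symbols: Cdh1, Epcam, Cldn3, Cldn4, Cldn7, Cldn18, Ocln, Dsc2, Dsg2 and Fermt1. All 10 had counts and passed the filter on low counts in every comparison. Their RNA was measured by bulk RNA-seq in 29 female C57BL/6J mice that had received the gastric cancer line YTN16 by intraperitoneal (IP) injection, 1 library per mouse. Checkpoint antibodies were given IP: anti-PD1, anti-CTLA4, or both (dual ICI, immune checkpoint inhibitors), and untreated mice received PBS. Tissue was taken at 3wk (day 21) from 5 untreated and 5 dual ICI mice. At 5wk (day 35) it came from 5 mice given PBS, 5 given anti-PD1, 4 given anti-CTLA4 and 5 given dual ICI, of which 2 were uncured and 3 cured. All 7 groups carried the YTN16 injection, and no mice without tumor cells were analysed. The labels call the sampled tissue tumor, while the methods describe peritoneum stripped with or without nodules, so each library holds tumor cells together with host tissue. The labels give treatment and day only. The outcome was taken from the study's mouse numbers (#1 and #5 uncured, #2 to #4 cured), read as the numbers in the library titles. The study describes the peritoneal tumors of the cured mice as completely gone by 5wk. Among the anti-PD1 mice, 1 cure was described without a number that could be used here, so all 5 anti-PD1 libraries stayed in 1 group. The 3wk and 5wk libraries carry identifiers from different number ranges in their labels. What these ranges mark is not stated, so time and any batch they mark cannot be told apart. By the study's schedule, the 5wk mice also received further antibody or PBS doses that the 3wk mice did not. Time and the number of doses cannot be told apart either.

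Epithelial cells are held together by 3 kinds of junction. E-cadherin binds its copy on the next cell at adherens junctions, desmosomal cadherins do the same at desmosomes, which anchor keratin filaments, and claudins with occludin seal the space between cells at tight junctions. Cldn18 encodes a claudin with a stomach form and a lung form, made from separate first exons, and the stomach form is used as a marker and drug target in gastric cancer. Muscle, fat, connective tissue and blood cells make little of most of these proteins. In bulk tissue, fewer epithelial cells and less RNA per epithelial cell cannot be told apart.

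Total counts per library lay between 25989217 and 31219650. Leaving aside the 3 cured libraries and anti-PD1 replicate 5, the summed level of 3 simple epithelial keratins (Krt8, Krt18 and Krt19) was 593.0 to 3110 CPM (the CPM scale of edgeR, counts relative to the TMM-scaled library size), that of 14 gastric epithelium markers 123.2 to 678.4 CPM, and 16 skeletal muscle genes took 4.06% to 19.5% of the counts. In the 3 cured libraries these values were 13.6 to 82.3 CPM, 10.5 to 27.2 CPM and 20.5% to 22.03%, with Gkn1, Gkn2, Tff1 and Muc5ac at 0 counts. Anti-PD1 replicate 5 stood apart from its group and lay near the cured libraries, with 48.9 CPM of keratins, 19.8 CPM of gastric markers, the same 4 markers at 0 and 20.3% of counts from muscle. Untreated 5wk replicate 2 had the highest muscle share outside these libraries, 19.5%, and the lowest keratin level of its group, 868.0 CPM. Signs and calls that turn on 1 of these libraries are given without it as well.

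The genes are spread over 8 chromosomes (GRCm38): Cldn18 on the minus strand at chr9:99689461-99717267, Cldn3 at chr5:134986214-134987472, Cldn4 on the minus strand at chr5:134945119-134946934, Cldn7 at chr11:69964779-69967885, Epcam at chr17:87635979-87651129, Cdh1 at chr8:106603351-106670246, Ocln on the minus strand at chr13:100496507-100552718 and Fermt1 on the minus strand at chr2:132904389-132945906. The desmosomal cadherin genes Dsc2 and Dsg2 lie on the same chromosome. Of their exons, 40 bases of Cldn3 (3.18%) are shared with Wbscr25 and 330 bases of Dsg2 (3.99%) with the antisense gene Gm16090. The strand setting of the counting was not stated, so those counts are uncertain by that part. Promoter sequences are shown for the 4 claudins. These include the member with the largest estimated fall of RNA in cured tissue (Cldn18) and a pair close to each other on chromosome 5 (Cldn3 and Cldn4). The member with the lowest level in tumor tissue (Cldn7) is also among them. Each is the 250 bases before a transcription start of RefSeq (GRCm38.p6), on the gene's strand, with capitals on matches to the E-box CAGGTG or the GC box GGGCGG on either strand.
Cldn18, first start, chr9:99717268-99717517, minus strand: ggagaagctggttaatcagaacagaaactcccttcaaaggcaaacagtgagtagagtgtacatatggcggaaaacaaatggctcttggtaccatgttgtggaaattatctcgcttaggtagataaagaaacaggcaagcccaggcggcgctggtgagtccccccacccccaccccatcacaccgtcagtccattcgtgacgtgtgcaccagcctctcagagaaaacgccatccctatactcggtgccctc
Cldn18, second start, chr9:99710064-99710313, minus strand: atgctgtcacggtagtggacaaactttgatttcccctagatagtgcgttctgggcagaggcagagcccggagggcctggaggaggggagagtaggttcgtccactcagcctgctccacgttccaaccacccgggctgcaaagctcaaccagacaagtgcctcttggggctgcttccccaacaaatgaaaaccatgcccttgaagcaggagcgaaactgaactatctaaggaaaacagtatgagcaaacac
Cldn3, chr5:134985964-134986213, plus strand: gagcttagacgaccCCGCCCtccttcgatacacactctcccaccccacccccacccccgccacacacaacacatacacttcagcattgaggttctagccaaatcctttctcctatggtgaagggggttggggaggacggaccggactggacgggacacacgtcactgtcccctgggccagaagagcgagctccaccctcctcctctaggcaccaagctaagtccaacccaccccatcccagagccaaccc
Cldn4, chr5:134946935-134947184, minus strand: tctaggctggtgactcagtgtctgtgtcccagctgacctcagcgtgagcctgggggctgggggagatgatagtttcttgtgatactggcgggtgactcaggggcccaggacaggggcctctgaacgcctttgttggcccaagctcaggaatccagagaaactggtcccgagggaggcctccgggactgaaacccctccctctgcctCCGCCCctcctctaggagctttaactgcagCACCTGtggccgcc
Cldn7, first start, chr11:69964529-69964778, plus strand: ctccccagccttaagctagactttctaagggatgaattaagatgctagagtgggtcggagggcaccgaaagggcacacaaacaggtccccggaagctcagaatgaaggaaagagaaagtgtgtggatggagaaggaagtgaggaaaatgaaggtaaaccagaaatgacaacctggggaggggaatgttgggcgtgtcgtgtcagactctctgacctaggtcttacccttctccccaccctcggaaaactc
Both Cldn18 windows and the first Cldn7 window hold no match to any of the 4 motifs searched (also TATAAA and AACCNGTT, a grainyhead motif). The window of the second Cldn7 start, chr11:69965171-69965420, overlaps an exon, is not shown, and holds 2 E-boxes and 1 GC box. The Cldn3 window holds 1 GC box, and the Cldn4 window holds 1 GC box and 1 E-box. RefSeq starts were found for 7 of the 10 genes, in 10 windows. The E-box stood in 4 of these windows and in 17.2% of 32851 promoter windows of that length, the GC box in 7 and in 32.7%, TATAAA in 0 and in 12.4%, and AACCNGTT in 0 and in 1.79%. The deposited counts are per gene, so transcripts from the 2 Cldn18 starts were counted together.

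Among untreated mice at 5wk, levels per length (CPM per kb of exons) differed widely between the genes. Epcam, the epithelial cell adhesion molecule, was highest at 157 ± 61.4 (SD, n = 5), followed by Cldn3 at 66.5 ± 19.8 and E-cadherin (Cdh1) at 66.0 ± 25.7, and the ranges of these neighbours overlapped. Cldn4, a tight junction claudin, followed at 19.3 ± 5.50, with every mouse below the lowest Cdh1 value, and overlapped the genes below it. The ranges of the next 5 genes over mice overlapped, and genes were not compared within each mouse. They were Fermt1 (11.3 ± 4.87), which encodes the integrin activator kindlin-1, and the desmosomal cadherin Dsc2 (9.74 ± 4.50). Cldn18 (9.12 ± 2.96), the desmosomal cadherin Dsg2 (8.80 ± 4.11) and Ocln (7.80 ± 3.66), which encodes occludin, completed them. Cldn7, a claudin of many simple epithelia, stood below all others at 0.584 ± 0.371 CPM per kb, and its highest mouse (1.04) was below the lowest Ocln value (2.29). At 3wk the untreated mice had Epcam first (92.8 ± 34.5), then Cdh1 (46.3 ± 18.2) and Cldn3 (32.8 ± 11.7), and Cldn7 was again last, at 0.531 ± 0.0837 and apart from Ocln.

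**Figure D1:**
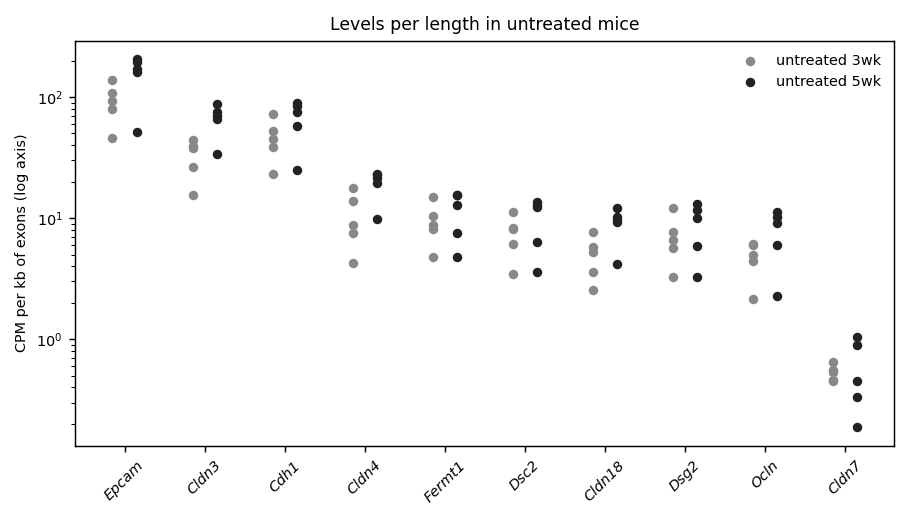
CPM per kb of exons (log axis) of the 10 junction genes in untreated mice, 1 point per mouse, grey for 3wk and black for 5wk (n = 5 each). Genes are ordered by their 5wk mean, from Epcam at 157 to Cldn7 at 0.584 CPM per kb, and Cldn7 lies apart below the other 9.

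Cldn18 was high in 25 libraries and near 0 in the cured mice and in 1 anti-PD1 mouse. In untreated mice its level at 3wk was 25.6, 11.3, 23.4, 34.5 and 15.9 CPM in replicates 1 to 5, and at 5wk 41.3, 18.6, 53.8, 44.2 and 45.4 CPM. With dual ICI at 3wk it was 11.4, 13.8, 31, 53.1 and 29.7 CPM, so the dual ICI mice ranged from close to the lowest untreated value to above the highest. At 5wk, the anti-CTLA4 mice had 61.9, 25.9, 42.4 and 50.2 CPM, which overlapped the untreated mice. The anti-PD1 mice had 39.2, 49.9, 53.0, 45.6 and 0.774 CPM, and the last value, from replicate 5, was 15 counts. The 2 uncured mice had 54.4 and 62.2 CPM, above every untreated mouse at 5wk. The 3 cured mice had 0.358, 0.0487 and 0.0484 CPM, which were 7, 1 and 1 counts.

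**Figure D2:**
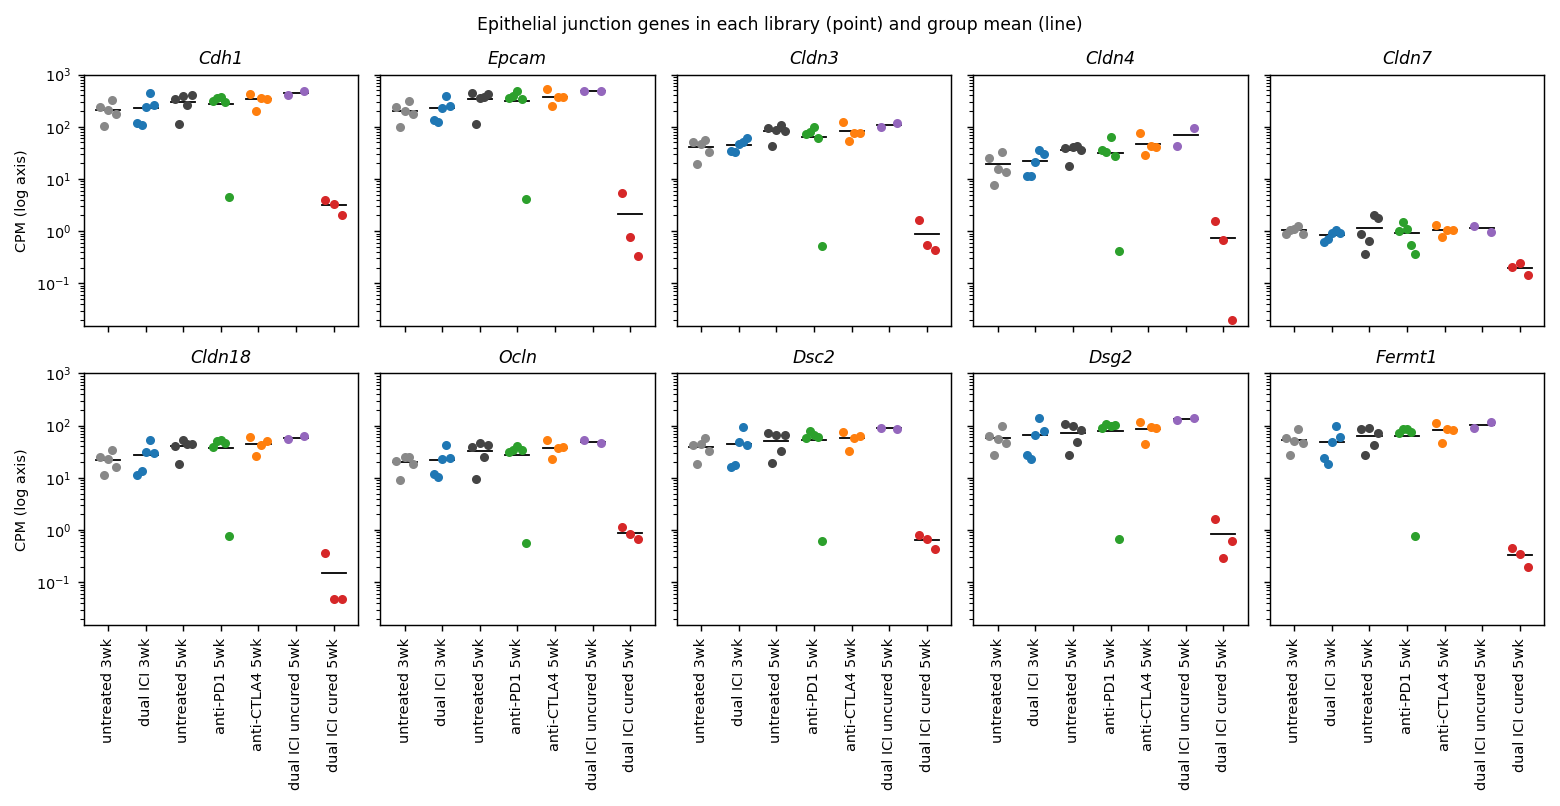
CPM (log axis) of each junction gene in each of the 29 libraries (points) with the group mean (line), for 7 groups. The cured libraries and anti-PD1 replicate 5 lie far below the others for 9 genes, with Cldn18 at most 0.774 CPM in them against at least 11.3 CPM elsewhere, and Cldn7 is low throughout. The count of 0 for Cldn4 in 1 cured library is drawn at the lower edge.

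All 10 genes were lower in the 3 cured than in the 5 untreated mice at 5wk, and no cured value reached an untreated one. The cured group was defined by cleared tumor, so lower levels of tumor epithelial genes were built into this comparison. Its p-values are no independent evidence of an effect on these genes. Of all 15816 genes tested, 26.7% were called lower (edgeR's quasi-likelihood test, Benjamini-Hochberg adjusted p under 0.05) and 26.9% were lower without overlap, so the calls on the 10 genes stand against a background in which many genes fell. The median log2 fold change was -6.48 over the 10 genes and -0.055 over all genes. Cldn18 had the largest estimated fall, 8.03 on the log2 scale (SE 0.60, adjusted p = 0.000108), from 40.6 ± 13.2 CPM (SD, n = 5) to 0.152 ± 0.179 CPM (SD, n = 3), 260.5-fold lower. Cured replicate 2 held 7 of its 9 counts in cured mice, and without that library the log2 fold change was -9.55, against -7.62 without replicate 3 and -7.61 without replicate 4. The log2 fold change was -7.56 (SE 0.57) for Fermt1 and -7.30 (SE 0.98) for Epcam. Without cured replicate 2, Epcam (-9.21), Cldn3 (-7.38), Cldn4 (-6.63) and Dsg2 (-7.25) also moved by over 1.5 times, as did Cldn4 without cured replicate 4 (-4.96). Epcam was spread widely over the cured mice, with 5.38, 0.779 and 0.339 CPM against 451, 114, 353, 374 and 428 CPM in untreated mice. Among the cadherins, it was -6.56 (SE 0.52) for Cdh1, -6.39 (SE 0.67) for Dsg2 and -6.28 (SE 0.57) for Dsc2. Cdh1 counted 3.99, 3.36 and 2.08 CPM in cured and 345, 115, 383, 263 and 405 CPM in untreated mice. For the tight junction genes it was -6.57 (SE 0.51) for Cldn3, -5.55 (SE 0.71) for Cldn4 and -5.20 (SE 0.57) for Ocln. The adjusted p of these genes and of the 5 before them lay between 0.000108 and 0.000494.

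Cldn7 fell least, with a log2 fold change of -2.47 (SE 0.66, adjusted p = 0.0146, edgeR), from 1.14 ± 0.722 CPM (SD, n = 5) to 0.198 ± 0.0495 CPM (SD, n = 3). Its untreated values were 0.887, 0.366, 0.645, 2.03 and 1.76 CPM and its cured values 0.205, 0.244 and 0.145 CPM, which were 4, 5 and 3 counts. The call on Cldn7 was lost without cured replicate 2 (adjusted p = 0.0502) or cured replicate 4 (adjusted p = 0.0616). The other 9 genes kept their calls with any 1 library left out. Without untreated replicate 2, the untreated mouse nearest to the cured mice, all 10 were called.

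What remained in cured tissue was small in counts, and the pooled share differed between the genes. Pooled over the 3 cured libraries, Cldn18 had 9 counts, which is 0.355% of its untreated level (95% exact interval 0.162% to 0.674%, counting error only). Fermt1 kept 0.486% (0.297% to 0.751%), Epcam 0.590% (0.492% to 0.702%) and Cdh1 0.990% (0.854% to 1.14%). Among the other tight junction genes, Cldn3 kept 1.01% (0.753% to 1.32%), close to Cdh1, Cldn4 2.02% (1.47% to 2.72%), Ocln 2.51% (1.87% to 3.28%) and Cldn7 17.5% (8.85% to 31.3%). Dsc2 kept 1.18% and Dsg2 1.09%, and their intervals overlapped. The 3 keratins kept 1.00% (Krt8), 1.95% (Krt18) and 3.29% (Krt19). Cldn4 was at 30, 14 and 0 counts in the 3 cured mice, and a count of 0 allows up to 3 counts. Epcam was at 105, 16 and 7 counts and Cdh1 at 78, 69 and 43, so the order of the genes differed between cured mice: Epcam exceeded Cdh1 in 1 of them and was below it in the others. The intervals leave out these differences between mice, so no order of the genes was read from the pooled shares.

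Anti-PD1 replicate 5 held 260 counts of the 10 genes in total, against 32553 to 45167 in the other anti-PD1 libraries and 103 to 335 in the cured ones. Relative to untreated mice at 5wk, it kept 1.44% of Cdh1 (95% exact interval 1.15% to 1.77%), 1.17% of Epcam (0.930% to 1.46%) and 1.85% of Cldn18 (1.04% to 3.06%). These intervals cover counting error only, and the cured mice differed among themselves, so no order was read between this library and them. Krt8, Krt18 and Krt19 summed to 947 counts in this library and to 281 to 1607 counts in the cured ones. Its outcome was not assigned here.

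The wider junction machinery was followed in lists of partners of the 10 genes. In cured against untreated mice, 15 of 19 tested tight junction partners were called lower and 1 higher, with a median log2 fold change of -2.57. Over all genes, 26.7% were called lower and 18% higher in this comparison, beside which the lists below also stand. The largest falls were in the claudin genes Cldn8 and Cldn2, in Marveld3, which encodes a relative of occludin, and in Cldn23. Cldn8 had 1 count in the 3 cured mice together (0.318% of untreated, 95% exact interval 0.00804% to 1.78%). Cldn2 kept 0.532% (0.394% to 0.704%), Marveld3 0.752% (0.324% to 1.48%) and Cldn23 1.16% (0.531% to 2.21%). Cldn1 was the partner that was higher (log2 fold change 0.94, SE 0.24, adjusted p = 0.0129, edgeR), and Cldn10, Cldn12 and the scaffold gene Tjp1 were not called. These 4, and the genes named below as higher or not called in a list whose other members fell, were chosen after their values were seen.

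Among desmosome and hemidesmosome partners, 11 of 13 were called lower and 1 higher, with a median of -2.69 that was the same with Dsg3 at its bound. Dsg3, a desmosomal cadherin of stratified epithelia, was at 0 counts in all 3 cured mice and at 5 to 63 counts in untreated mice, at least 20.9-fold lower against a floor of 3 counts over the group. The desmosomal plaque genes Dsp (-5.89, SE 0.80) and Pkp3 (-4.49, SE 0.48) and the hemidesmosomal collagen gene Col17a1 (-3.81, SE 0.66) followed. Dst, which has muscle and nerve forms beside the epithelial one, was higher (1.20, SE 0.37, adjusted p = 0.0252, edgeR), and Jup was not called.

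The adherens junction partners fell less as a list: 8 of 12 were called lower and 0 higher, with a median of -0.87. Cdh17, an intestinal cadherin, had a log2 fold change of -8.25 (SE 1.10) and was at 27, 0 and 0 counts in the cured mice. The nectin gene Nectin2 (-2.83, SE 0.32) and the P-cadherin gene Cdh3 (-1.84, SE 0.46) followed. The catenin gene Ctnnb1, Vcl and Afdn were among those not called. Among kindlin and integrin partners, 2 of 10 were lower and 2 higher, with a median of 0.14. These counts were near the shares over all genes, 26.7% lower and 18% higher. The integrin subunit genes Itga2 (-3.32, SE 0.69) and Itga3 (-2.50, SE 0.28) fell, while Fermt2, the kindlin of most other tissues (1.22, SE 0.36), and Itgb6 (0.89, SE 0.15) rose.

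Regulators of the epithelial program were lower too: 7 of 8 tested were called lower, with a median of -5.34, led by the ETS factor gene Ehf (-7.14, SE 0.56), the splicing regulator gene Esrp1 (-6.60, SE 0.64), Elf3 (-6.53, SE 0.49) and Esrp2 (-5.79, SE 0.71). Ovol1 was higher (1.04, SE 0.30). Of 8 mesenchymal regulators, Snai1 was lower (-1.21, SE 0.21) and Zeb1 higher (0.82, SE 0.24), and the other 6 were not called. Cadherins and claudins of other cell types showed no common direction: Cldn15 (-3.16, SE 0.47) and Cdh11 (-2.54, SE 0.41) fell, and Cldn11 (2.33, SE 0.56) and the endothelial cadherin gene Cdh5 (0.78, SE 0.26) rose. Of 16 skeletal muscle markers 5 were called higher and 0 lower, and of 8 mesothelium markers 1 higher and 4 lower. Over all genes, 18% were called higher and 26.7% lower. The summed mesothelium level was 53.2 to 198.1 CPM in cured and 174.4 to 567.5 CPM in untreated mice. The part of these cell types in the differences of the junction genes was not tested.

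**Figure D3:**
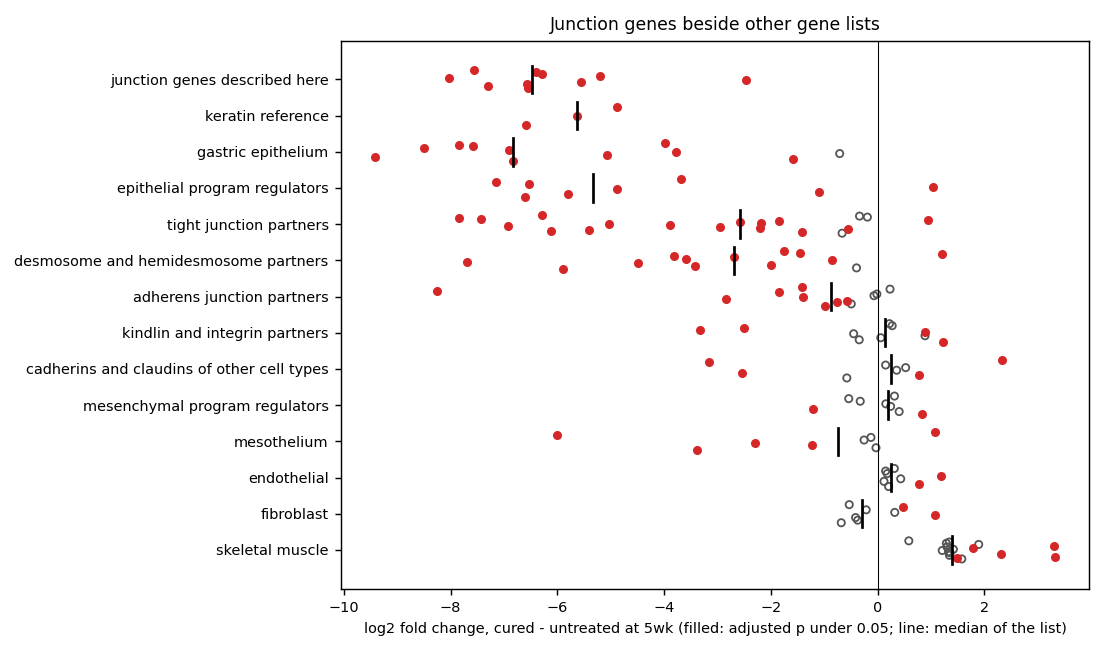
Fitted log2 fold change of cured against untreated mice at 5wk (n = 3 and 5) for the 10 junction genes and for 13 other gene lists, 1 point per tested gene, filled where the adjusted p was under 0.05, with a line at the list's median. The junction genes (median -6.48) and epithelial regulators (-5.34) lie far left, adherens junction partners nearer to 0 (-0.87) and skeletal muscle right (1.39). Genes at 0 counts in all cured mice are drawn at their fitted value, and with them at their bound the gastric epithelium median is -5.08.

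The 2 uncured mice carried the junction genes at untreated levels or somewhat above. In 7 of the 10 genes both uncured mice exceeded all 5 untreated mice at 5wk, which 9.22% of all genes did. The genes share the tissue of their library, so the 7 are not independent. None of the 10 was called (0 of 16156 genes over the whole table, 0%, edgeR), 1 of them had an unadjusted p under 0.05 (4.87% of all genes had, 787 genes), and DESeq2 called 18 genes but 0 of the 10. That 1 was Cldn4, at 42.9 and 93.5 CPM in uncured and 38.8, 17.9, 41.6, 42.1 and 35.2 CPM in untreated mice. Its log2 fold change was 0.96 (SE 0.36, unadjusted p = 0.0256, adjusted p = 0.734), and it moved between 0.27 and 1.42 with 1 library left out. The median of the 10 was 0.58, and 0.37 without untreated replicate 2. With the mean keratin level as a covariate it was 0.20. The desmosomal cadherins followed with 0.86 (SE 0.44) for Dsg2 and 0.78 (SE 0.44) for Dsc2. Cldn18 had 0.52 (95% interval -0.13 to 1.16) and Cldn7 -0.01 (95% interval -1.22 to 1.19). Skeletal muscle genes took 5.26% and 7.29% of counts in the uncured and 5.95% to 19.5% in the untreated mice, and all 16 muscle markers had a log2 fold change below 0 with none called. The summed level of 8 leukocyte markers was 468.9 and 533.6 CPM in uncured and 188.9 to 472.4 CPM in untreated mice.

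Within dual ICI at 5wk, all 10 genes were higher in uncured than in cured mice, where 36.9% of 15796 genes were called higher and 43.7% were higher without overlap. The log2 fold changes were 8.55 (SE 0.32) for Cldn18, 8.25 (SE 0.23) for Fermt1, 7.82 (SE 0.64) for Epcam and 7.14 (SE 0.22) for Cdh1. Cldn7 differed least, at 2.46 (SE 0.45, adjusted p = 0.00116, edgeR), and the adjusted p of the other 9 was 1.87e-05 or less. These values share the cured libraries with the comparison of cured and untreated mice, and the groups were again formed by whether tumor remained. When the label group of all 5 dual ICI mice was set against untreated mice, the log2 fold changes over both outcomes lay between -0.95 (Cldn7) and -0.35 (Cldn4), with SEs of 0.67 to 1.51, all below 0, as were 51.6% of all genes. None of the 10 genes was called, as were 0 of 15588 genes in all (0%, edgeR). At an unadjusted p under 0.05 there were 1071 genes (6.87%) with 0 of the 10, and DESeq2 called 56 genes with 0 of the 10.

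**Figure D4:**
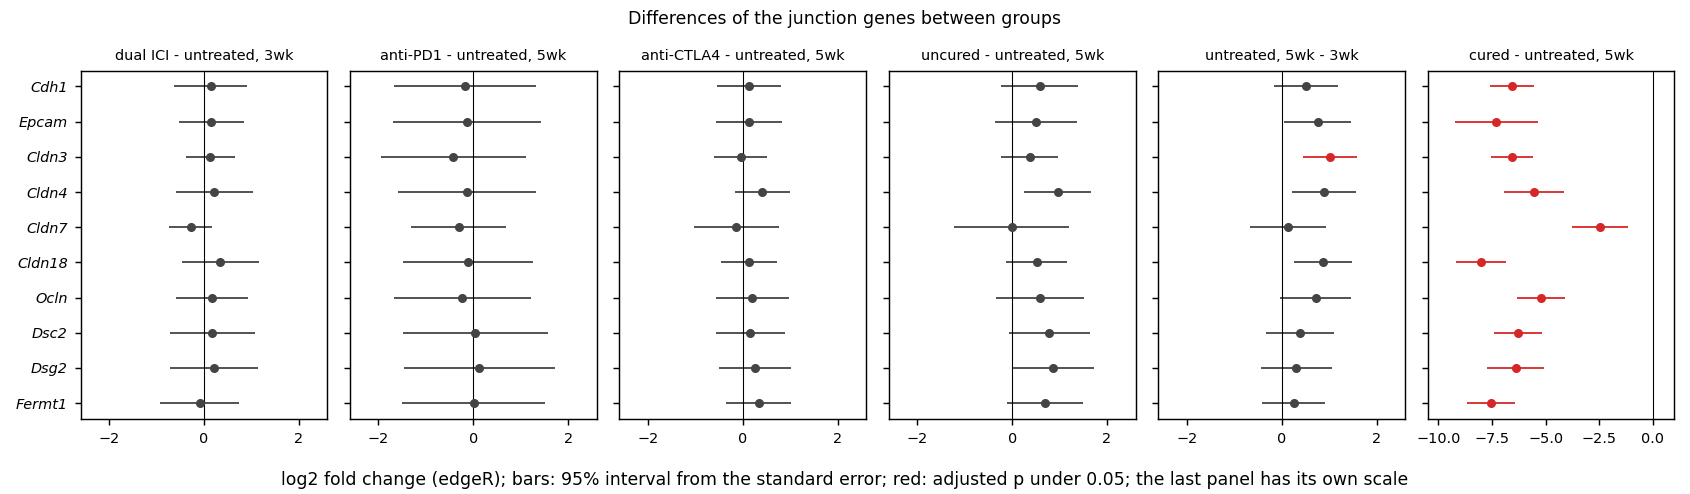
log2 fold change (point) and 95% interval from the standard error (bar) of each junction gene in 6 comparisons, red where the edgeR adjusted p was under 0.05. Only Cldn3 between untreated mice at 5wk and 3wk (1.02) and all 10 genes in cured mice are red, and the panel of cured mice has its own scale.

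At 3wk, 0 of the 10 genes were called between dual ICI and untreated mice, where 0.574% of 15503 genes were called (89 genes by edgeR and 507 by DESeq2, which called 0 of the 10), and 0 of the 10 had an unadjusted p under 0.05, as 10.7% of all genes had. The log2 fold changes ran from -0.28 (Cldn7) to 0.35 (Cldn18, 95% interval -0.46 to 1.16), and 2 were below 0, as were 45.4% of all genes. Without dual ICI replicate 4, 9 of the 10 were below 0 and their median was -0.23 in place of 0.16. The dual ICI mice varied widely among themselves: Cdh1 was 117, 108, 237, 435 and 260 CPM in them and 241, 105, 205, 331 and 177 CPM in untreated mice. Their muscle share varied too, from 6.90% in replicate 4, which had the highest Cdh1, to 18.4% in replicate 1, and from 7.61% to 15.5% in untreated mice.

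For anti-PD1 at 5wk, 0 of the 10 genes were called (0 of 15640 genes, 0%, edgeR, and 0 by DESeq2), and 0 of the 10 had an unadjusted p under 0.05, as 205 genes (1.31%) had. The log2 fold changes lay between -0.42 (Cldn3) and 0.13 (Dsg2) with SEs of 0.51 to 0.81, and 7 were below 0, as were 51.2% of all genes. They turned on replicate 5: without it, 8 of the 10 were above 0, from -0.13 (Cldn7) to 0.44 (Dsg2), and 0 were called. The Epcam mean was 314 ± 183 CPM (SD, n = 5) with it and 391 ± 69.6 CPM (SD, n = 4) without it, against 344 ± 135 CPM in untreated mice. Without untreated replicate 2 instead, all 10 were below 0.

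For anti-CTLA4, 0 of the 10 genes were called (0 of 15781 genes, 0%, edgeR, and 0 by DESeq2), and 0 of the 10 had an unadjusted p under 0.05, as 128 genes (0.811%) had. The log2 fold changes lay between -0.13 (Cldn7) and 0.41 (Cldn4, 95% interval -0.16 to 0.99), and 2 were below 0, as were 55% of all genes. Without untreated replicate 2, 7 of the 10 were below 0 and their median was -0.0430 in place of 0.15. Cldn4 was 75.3, 29.3, 43.5 and 40.6 CPM in these mice, and 2 of the 4 lay within the untreated range of 17.9 to 42.1 CPM while the other 2 lay above it.

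Between 3wk and 5wk in untreated mice, all 10 genes had a log2 fold change above 0 (47.7% of all genes were below 0) and Cldn3 was called higher, where 6.24% of 15604 genes were. Cldn3 was 50.0, 19.6, 47.4, 56.1 and 33.3 CPM at 3wk and 95.05, 42.9, 87.9, 110 and 83.3 CPM at 5wk. Only replicate 2 at 5wk lay within the 3wk range. Its log2 fold change was 1.02 (SE 0.29, adjusted p = 0.0447, edgeR), or 2.03-fold. Cldn4 (0.89, SE 0.34, adjusted p = 0.108), Cldn18 (0.88, SE 0.31, adjusted p = 0.0869) and Epcam (0.76, SE 0.36, adjusted p = 0.176) were not called. The desmosomal cadherins and Fermt1 differed less, with 0.39 for Dsc2, 0.31 for Dsg2 and 0.25 for Fermt1. The call on Cldn3 rested on the libraries. Without untreated 5wk replicate 2 there were 5 calls (Epcam, Cldn3, Cldn4, Cldn18 and Ocln). Without untreated 3wk replicate 4 there were 2 (Cldn3 and Cldn4), and without any 1 of the other 8 there were 0. Calls over all genes also moved, from 654 to 4915 with 1 library left out, against 1687 with all libraries. The keratins also had values above 0 without passing the threshold (Krt18 1.02, adjusted p = 0.0573, Krt19 0.96, adjusted p = 0.0899, and Krt8 0.81, adjusted p = 0.144). Markers of other cell types moved as well, and those of fibroblasts the other way. Of all genes, 4.58% were called lower. Among 8 fibroblast markers 5 were called lower, including Col3a1 (-1.27, SE 0.27) and Col1a1 (-0.94, SE 0.25). The summed fibroblast level was 12452 to 20177 CPM at 3wk and 6023 to 10706 CPM at 5wk. Of 16 muscle markers 1 was called lower (Myh2, -2.08, SE 0.27), and of 8 leukocyte markers 1 was lower (Ptprc, -0.82, SE 0.21) and 1 higher (S100a8, 2.08, SE 0.40). Their part in the differences of the junction genes was not tested.

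The uncured mice at 5wk showed a like picture against dual ICI mice at 3wk. All 10 genes had a log2 fold change above 0 (52.4% of all genes were below 0), from 0.40 (Cldn7) to 1.63 (Cldn4, SE 0.46, adjusted p = 0.0683), and in 5 both uncured mice exceeded all 5 mice at 3wk, which 19.1% of genes did. Cldn3 was the gene called (1.25, SE 0.24, adjusted p = 0.0348, edgeR), where 3.05% of 16135 genes were called higher. Its values were 99.98 and 116 CPM in uncured mice and 34.8, 32.4, 46.1, 50.7 and 61.2 CPM in dual ICI mice at 3wk. Without dual ICI 3wk replicate 4, 8 genes were called, all but Cldn7 and Dsg2. Calls over all genes in this comparison also moved, from 0 to 4006 with 1 library left out, against 857 with all libraries. The call on Cldn3 was kept without replicate 4 or 5 of that group, and 0 genes were called without replicate 1, 2 or 3 of it or without either uncured mouse. The difference between dual ICI and untreated mice was also compared between 3wk and 5wk as an interaction, with only the uncured mice at 5wk. Cured mice were left out, so the 5wk side was chosen by outcome and the 3wk side was not. In this and in the direct comparison, the uncured mice had also received further antibody doses beyond those of the 3wk mice. The values ran from 0.19 (Cldn18) to 0.80 (Fermt1) with adjusted p of 0.735 or more. No gene of 16542 was called (0%, edgeR), with 1050 genes (6.35%) and 0 of the 10 at an unadjusted p under 0.05, and DESeq2 called 1 gene and 0 of the 10.

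Among partners, 3 of 19 tight junction, 2 of 12 adherens junction and 2 of 13 desmosome partners were called higher in uncured mice than in dual ICI mice at 3wk, beside the 3.05% of all genes given above: Col17a1 (3.02, SE 0.31), Cldn23 (1.49, SE 0.31), Evpl (1.39, SE 0.32), Tjp3 (1.33, SE 0.29), Ppp1r13l (1.26, SE 0.24), Llgl2 (1.19, SE 0.17) and Nectin2 (1.02, SE 0.22). None of 10 kindlin and integrin partners and 8 epithelial regulators was called. Between untreated mice at 5wk and 3wk, 2 of 19 tight junction partners were called higher, the polarity gene Crb3 (1.24, SE 0.29) and the junctional adhesion molecule gene F11r (0.70, SE 0.20), and 1 of 13 desmosome partners, Col17a1 (2.15, SE 0.52), where 6.24% of all genes were. Itgb6 was called lower (-0.71, SE 0.12) among 10 kindlin and integrin partners, where 4.58% of all genes were called lower. None of 11 adherens junction partners and 8 epithelial regulators passed.

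Set against the keratin sum of the same library, some genes changed as keratin did and others less. These keratins are also made by mesothelium, and the ratio takes all of their RNA. Between untreated mice at 3wk and 5wk, the log2 ratio to keratin changed by 0.02 for Cldn18, 0.12 for Cldn4 and 0.17 for Cldn3, and by -0.99 for Cldn7, -0.66 for Fermt1, -0.61 for Dsg2, -0.55 for Dsc2, -0.40 for Cdh1, -0.26 for Ocln and -0.17 for Epcam. Untreated 5wk replicate 4 had 3110 CPM of keratins, the most in its group, but 986 CPM of the 10 genes. Without it, an alternative chosen after seeing the data, the changes were -1.08 for Cldn7, -0.37 for Fermt1, -0.32 for Dsg2, -0.26 for Dsc2, -0.20 for Cdh1, -0.0385 for Ocln and -0.0606 for Epcam, and 0.15 for Cldn18, 0.22 for Cldn4 and 0.24 for Cldn3. The Fermt1 ratio of replicate 4 was -6.17 against -4.99 to -4.58 in the other 4 mice. In untreated mice at 3wk the Fermt1 ratio was -4.44 to -4.25, below which all 5 mice at 5wk lay. With the mean keratin level as a covariate in edgeR, 0 of the 10 genes were called between the untreated groups. The same covariate in the comparison of uncured mice with dual ICI mice at 3wk gave Dsg2 (-0.90, adjusted p = 0.0342) and Fermt1 (-0.69, adjusted p = 0.0498) as lower, the opposite direction to the fit without it (0.98 and 1.05, neither called), and Cldn3 was no longer called (0.56, adjusted p = 0.114). Keratin levels did not overlap between these groups (2416 and 3107 CPM in uncured mice, 671.6 to 1813 CPM in dual ICI mice at 3wk). The covariate and the group thus cannot be told apart in that fit. The ratio itself changed in that comparison by -0.0389 for Dsg2, -0.0392 for Fermt1, -0.0131 for Dsc2 and -0.0369 for Cldn3. The covariate calls on Dsg2 and Fermt1 were thus not matched by the ratio. Among the other genes, it changed by -0.91 for Cldn7, 0.36 for Cldn4, -0.18 for Cdh1, -0.0760 for Epcam, -0.0496 for Cldn18 and 0.0106 for Ocln. In cured against untreated mice, keratin levels did not overlap between the groups either. The covariate and the outcome cannot be told apart there, and 0 of the 10 genes were called with it.

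**Figure D5:**
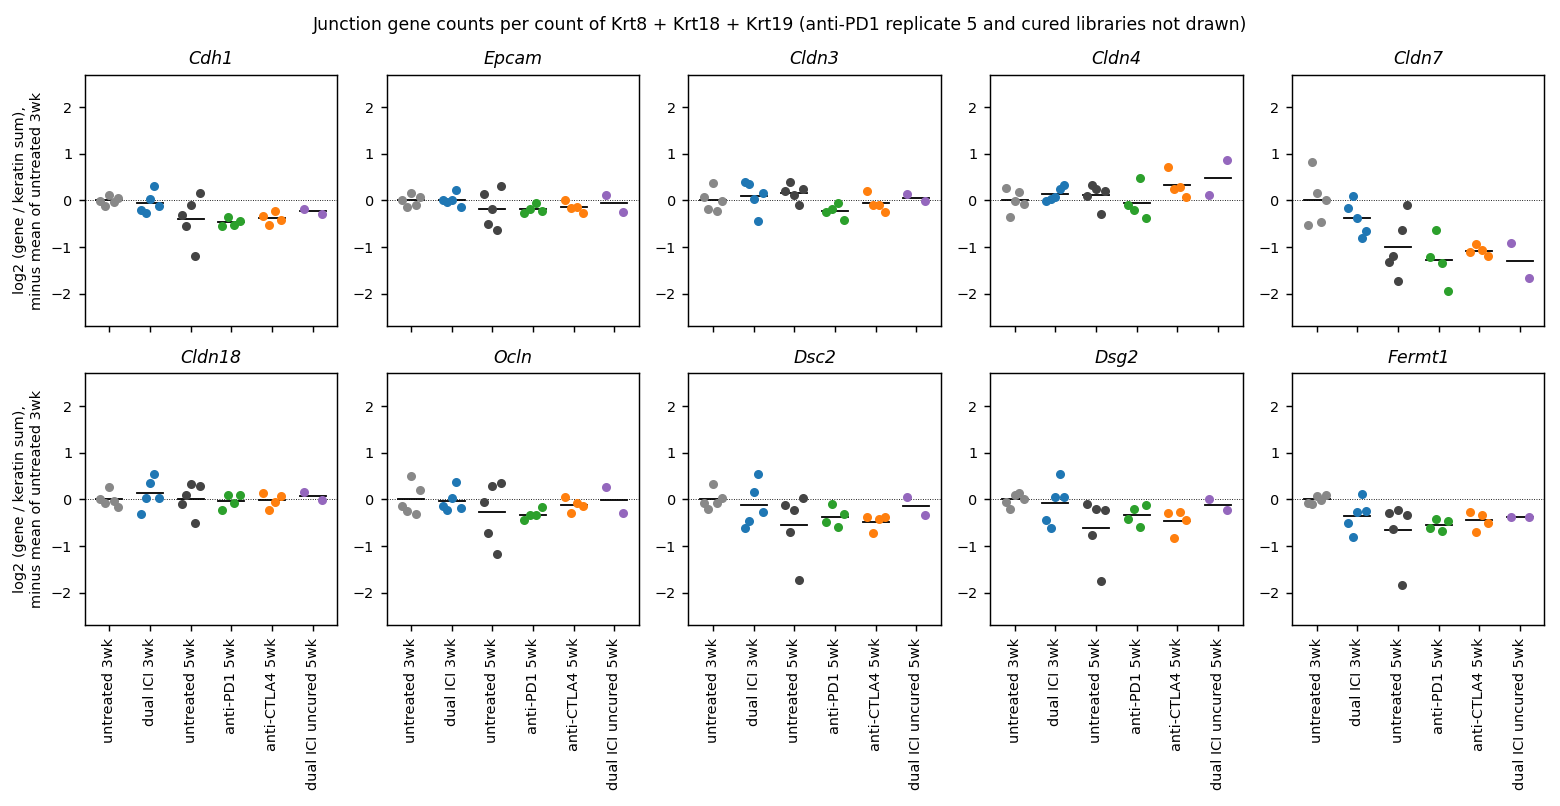
log2 ratio of each gene's count to the summed counts of Krt8, Krt18 and Krt19, less the mean of untreated 3wk mice, 1 point per library with the group mean as a line. The cured libraries and anti-PD1 replicate 5 are left out. Cldn18 stays near 0 in untreated 5wk mice (mean 0.02) while Fermt1 lies at -0.66, with 1 untreated 5wk library far below the rest.

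Across the 26 libraries other than the cured ones, 9 of the genes moved together from mouse to mouse. Spearman's rho of their log2 CPM over the 36 pairs ran from 0.74 to 0.98 (median 0.90), and from 0.71 to 0.97 (median 0.89) without anti-PD1 replicate 5. Within the 10 libraries of 3wk it ran from 0.71 to 1.00. Cldn7 correlated less with the other 9 (0.42 to 0.61 over 26 libraries, 0.32 to 0.71 within 3wk), at a mean of 1.00 CPM. All these points share the depth and the epithelial content of their library, so the correlations describe the libraries and carry no test.

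Among 14362 genes with a mean of at least 1 CPM in the 26 libraries, the pattern of Cldn18 was most like that of Mgam (rho 0.97), Gprc5a (0.96), Igsf5 (0.96), Mgat4a (0.95) and Il1a (0.95). Igsf5, which encodes an adhesion molecule of epithelial tight junctions, also had a rho of 0.99 within the 10 libraries of 3wk. Of the junction genes, Ocln came next at rank 6 (0.95) and Cdh1 at rank 9 (0.95). Dsc2 ranked 88, Epcam 130, Cldn4 196, Fermt1 249, Dsg2 289 and Cldn3 446, while Cldn7 ranked 4685 (0.48).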

How the data were processed

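RNA-seq libraries of 29 mice were analysed. The authors deposited 1 table of unnormalized read counts by gene symbol, made after alignment to mm10. The submitters' processing notes name STAR 2.7.0f and featureCounts 1.6.4, while the study's methods name other tools, and annotation and strand setting are not given in the sources used here. Library totals lay between 25989217 and 31219650 counts.

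From these counts, groups were compared pairwise with edgeR 4.0.16 in R 4.3.3 (TMM, filterByExpr by group, glmQLFit, glmQLFTest, two-sided, Benjamini-Hochberg over all genes tested, adjusted p under 0.05), with only the groups compared in each fit. SEs were taken from the F statistic, and 95% intervals in log2 from the SE. CPM used TMM-scaled library sizes over all 29 libraries, and ratios to keratin a pseudocount of 0.5 counts. Lengths and positions came from GENCODE on GRCm38, where all 10 genes matched. Pooled residual levels carry exact binomial intervals. The tests were tested on simulated data. Tables were handled with pandas 2.3.3 and scipy 1.17.1 and figures drawn with matplotlib 3.10.9.

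The genes and the lists were chosen with earlier results of these data known. Named genes were the 10 junction genes, at most 4 genes per list and comparison (the largest changes among those called), 3 keratins and the 5 genes most like Cldn18. The endothelial, fibroblast, adipocyte, liver, exocrine pancreas and intestinal epithelium lists were not described in the text for cured against untreated mice. In that comparison they had 2, 2, 1, 0, 0 and 0 genes called higher and 0, 0, 0, 2, 1 and 6 called lower, and leukocyte markers 0 and 2. Over all genes, 18% were called higher and 26.7% lower there.

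Alternatives were DESeq2 1.42.0, RLE and upper-quartile scaling, other filters on low counts (none, or at least 10 counts in every library), muscle genes left out, 1 fit of all 29 libraries, the keratin level as covariate, the replicate number as a block, and each library left out in turn. Each library came from a separate mouse, and no 2 libraries were alike within sampling noise.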

Additional observations from a re-analysis of the deposited data

Results flagged for a closer look

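Of 50 gene and group combinations examined, 12 held a library whose distance from the nearest other, over the range of its group on the log2 scale, passed Dixon's 95% limit. Chance does so in about 1 in 20 groups. The 10 genes of a library share its tissue, so the 12 are not independent.

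For 9 of the 12 the library was anti-PD1 replicate 5. It held 4.54 CPM of Cdh1 (next in its group 301.3), 4.18 CPM of Epcam (337.7), 0.516 CPM of Cldn3 (59.7), 0.413 CPM of Cldn4 (27.1) and 0.774 CPM of Cldn18 (39.2). It also held 0.568 CPM of Ocln (30.8), 0.620 CPM of Dsc2 (58.6), 0.671 CPM of Dsg2 (90.5) and 0.774 CPM of Fermt1 (73.6). Its muscle genes took 20.3% of counts, and the part of tissue make-up in these values was not tested.

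The other 3 were untreated 5wk replicate 2, with 114 CPM of Epcam (next in its group 353.2), 17.9 CPM of Cldn4 (35.2) and 18.6 CPM of Cldn18 (41.3). Muscle genes took 19.5% of its counts, against 5.95% to 12.7% in the other 4 mice, and their part was not tested.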

How the results depend on the processing

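Leaving aside single libraries left out, 793 fold changes of single genes kept their direction and their side of the threshold, 18 lost a call, 12 gained one and 36 turned in direction. Counts of the 10 genes called stayed within 1.5 times in 77 cases and moved in 12, and counts over all genes in 73 and 16. Mean levels moved by over 1 SD in 11 of 140 cases, and ratios to keratin in 14 of 50 with gastric markers as reference. The cause was not tested. Of the 10 genes, cured against untreated mice had 10 calls, or 2 where at least 10 counts were required in every library (only 2 were then tested) and 0 with the keratin covariate. Uncured against cured mice had 10, or 2 with that filter (2 tested) and 3 with keratin. Untreated mice over time had 1, or 2 with DESeq2, 0 with 1 fit of all libraries and 0 with keratin. Uncured against dual ICI 3wk mice had 1, or 2, 0 and 2 under the same settings, the last 2 in the lower direction. Keratin levels did not overlap between those groups, nor between cured mice and either untreated 5wk or uncured mice. The covariate and the group cannot be told apart in these fits. Leaving out 1 library gave 9 to 10, 10, 0 to 5 and 0 to 8 calls in these 4 comparisons.

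Over all genes, the 89 calls of dual ICI at 3wk became 507 with DESeq2, 672 with keratin and 6 to 119 without 1 library. The 7067 of cured mice became 0 with keratin and 4491 to 9388 without 1 library, and the 11063 of uncured against cured mice became 1048 with keratin. The 1687 over time became 3141 with DESeq2, 106 with keratin and 654 to 4915 without 1 library. The 857 of uncured against dual ICI 3wk mice became 3173 with DESeq2, 237 with 1 fit, 1447 with keratin and 0 to 4006 without 1 library. DESeq2 gave 18, 1 and 56 where edgeR gave 0 (uncured against untreated, interaction, all dual ICI).

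With the keratin covariate these log2 fold changes turned: dual ICI at 3wk Cdh1 -0.0542, Ocln -0.0482, Dsc2 -0.13 and Dsg2 -0.10; anti-PD1 Fermt1 -0.0048 (-0.0058 with upper-quartile scaling); cured Cldn7 1.40; uncured against cured Epcam -1.02 and Cldn4 -3.59. Over time they were Cdh1 -0.29, Epcam -0.19, Cldn7 -0.58, Ocln -0.16, Dsc2 -0.38, Dsg2 -0.52 and Fermt1 -0.45. Against dual ICI 3wk mice they were Cdh1 -0.57, Epcam -0.11, Cldn7 -0.0729, Cldn18 -0.53, Ocln -0.26, Dsc2 -0.77, Dsg2 -0.90 and Fermt1 -0.69. In the interaction they were Cldn3 -0.0660 and Cldn18 -0.13, and for all dual ICI mice Cldn4 0.37, Ocln 0.15, Dsc2 0.17 and Dsg2 0.22. Of the turned values, only Dsg2 and Fermt1 against dual ICI 3wk mice were called. In the fits with cured mice as a group, keratin and outcome cannot be told apart, so no change of direction was read from them.

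Same-numbered libraries deviated together in some pairs and not in others (r from -0.73 to 0.78, above 0.1 in 0 to 3 pairs of a comparison). For anti-CTLA4, r was above 0.1 in 3 of 4 pairs, and for all dual ICI mice in 3 of 5. With such mixed values the numbers were not taken as pairs. For dual ICI at 3wk, the submitters' column names also carry other numbers than the titles in all but replicate 1. A block by title number thus has no known meaning in comparisons with that group. In no comparison with 3 or more pairs did every library correlate best with its own number (0 to 2 did). With the replicate number as a block, 10 genes were called in cured mice, 3 over time, 9 against dual ICI 3wk mice and 0 in the other comparisons. The pairwise block fits kept only libraries whose numbers occurred in both groups. That left 2 pairs against dual ICI 3wk mice and 3 pairs in cured against untreated mice. Where libraries were dropped, the block and the dropped libraries cannot be told apart. Over all genes the block gave 209 calls for dual ICI at 3wk, 3902 for cured mice, 2 for uncured against untreated mice and 3098 against dual ICI 3wk mice. The block turned Dsc2 at 3wk (-0.0200), Dsc2 (-0.14), Dsg2 (-0.10) and Fermt1 (-0.23) with anti-PD1, Cldn7 with anti-CTLA4 (0.27) and Cldn7 over time (-0.0435). No paired analysis was possible because uncured and cured mice share no numbers, in that comparison.

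Without 1 library, values that turned ranged as follows. Dual ICI at 3wk: Cdh1 -0.23 to 0.35, Epcam -0.17 to 0.33, Cldn3 -0.0368 to 0.26, Cldn4 -0.0344 to 0.49, Cldn18 -0.0422 to 0.55, Ocln -0.22 to 0.35, Dsc2 -0.33 to 0.39, Dsg2 -0.26 to 0.48 and Fermt1 -0.50 to 0.13. Anti-PD1: Cdh1 -0.39 to 0.13, Epcam -0.36 to 0.18, Cldn4 -0.54 to 0.17, Cldn18 -0.29 to 0.20, Ocln -0.47 to 0.0749, Dsc2 -0.18 to 0.35, Dsg2 -0.0843 to 0.44 and Fermt1 -0.19 to 0.32. Anti-CTLA4: Cdh1 -0.0729 to 0.31, Epcam -0.0934 to 0.28, Cldn3 -0.30 to 0.11, Cldn7 -0.35 to 0.16, Cldn18 -0.0524 to 0.33, Ocln -0.0289 to 0.38 and Dsc2 -0.0453 to 0.36. Cldn7 ranged from -0.23 to 0.28 in uncured against untreated mice and from -0.17 to 0.35 over time, and Cldn18 from -0.0321 to 0.56 in the interaction. Depth limited the cured values, where Cldn7 and Cldn18 had 12 and 9 counts in all.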
